A study of Mus musculus with 15 samples.

Results

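H3K27ac, acetylation of lysine 27 on histone H3, marks the nucleosomes that flank active promoters and enhancers. DNase hypersensitive sites are stretches of chromatin cleared of nucleosomes, where transcription factors bind and nuclease cuts. At an active element the open site usually lies between acetylated nucleosomes, so a domain of the histone mark commonly holds a DNase peak. The domains described here are the exceptions: stretches of H3K27ac in E13.5 preSertoli cells that overlapped no peak, by 1 bp or more, in any of 8 DNase-seq lists. There were 5769 such domains among 28586, or 20.2% of the H3K27ac list (Wilson 95% interval 19.7 to 20.7), and they are called DNase-free domains below. They were chosen by the absence of DNase peaks, so that share is a description. Where no peak was called, the chromatin may still be open at a level below the authors' threshold.

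PreSertoli cells, the supporting cell lineage of the fetal testis, surround germ cells and take part in building the testis cords. The H3K27ac domains came from 2 ChIP-seq libraries with 2 input libraries, all of cells sorted by flow cytometry from fetal testes of C57BL/6J x CD-1 (F1) embryos at E13.5, crosslinked, frozen and pooled from several sorts. The DNase lists came from 1 library each of E13.5 preSertoli cells and of E15.5 preSertoli cells (Sox9 heterozygous males sired by Sox9-ECFP C57BL/6J mice and carried by CD-1 dams), feeder-free ES cells, skin fibroblasts grown from adult mice, and adult whole brain, heart, kidney and liver, these 6 all C57BL/6J. Endogenous nucleases did the cutting in preSertoli cells and added DNase I in the other 6 cell types, so cell type and digestion cannot be told apart. The deposited H3K27ac list gives 1 set of positions with no value per domain or per library, and 1 DNase library stands for each cell type. No test across samples was therefore possible, and differences are given with the spread over chromosomes, which are not replicates. Intervals cover counting error only. Positions are in mm9. No sequence or gene is printed for a domain, because no genome or annotation of that build was used here.

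The DNase-free domains were one end of a distribution with most domains at its extremes. Of all domains, 11029 (38.6%) had a peak in all 8 lists, whereas 2355 (8.24%) had a peak in 1 list alone and 1056 (3.69%) in 6. Domains with a peak in 1 list owed it to the E13.5 preSertoli list in 636 cases, to the E15.5 preSertoli list in 619 and to ES cells in 416. Adult liver was the sole list for 181, skin fibroblasts for 153, heart for 136, kidney for 117 and brain for 97. The remaining domains fell into 21120 with a preSertoli peak at either stage and 1697 with a peak of another cell type only, and both sets serve below for comparison.

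**Figure D1:**
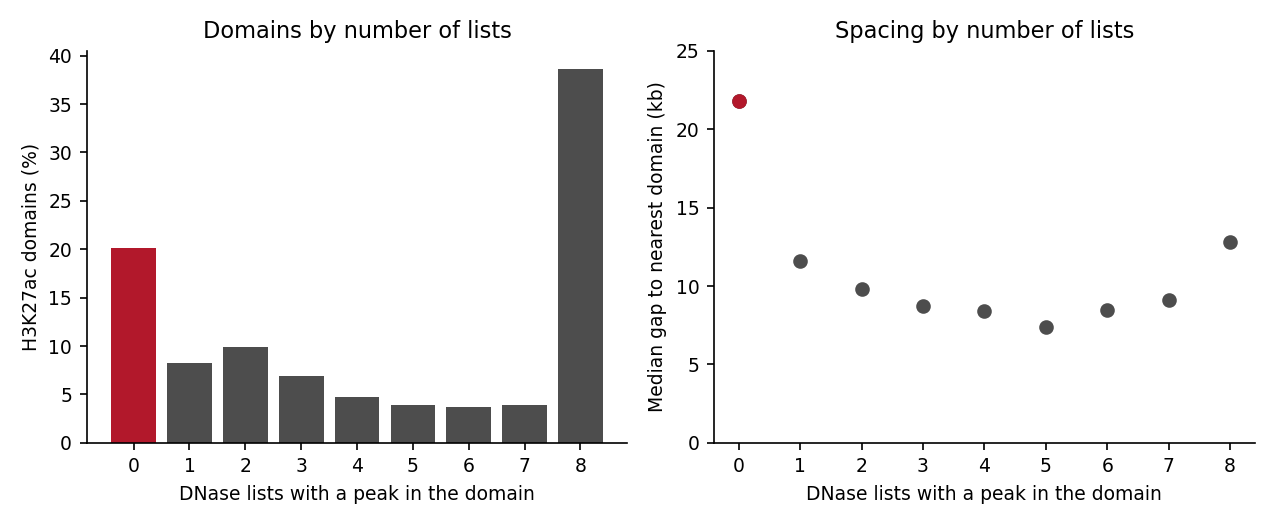
Left, the percentage of the 28586 H3K27ac domains by the number of DNase lists with a peak inside (bars start at 0; red, DNase-free domains); right, the median gap in kb from these domains to the nearest other domain. The set with no list holds 20.2% of domains and has the widest median gap, 21800 bp, against 7400 to 12800 bp in the sets with 1 to 8 lists.

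DNase-free domains were narrow. Their median width was 1400 bp (quartiles 1000 and 2200 bp), against 2400 bp (quartiles 1600 and 3400 bp) in domains with any peak. Domains with a peak of another cell type only lay between, at 1800 bp. Together the DNase-free domains covered 9.38 Mb, which is 13.2% of the acetylated length for 20.2% of the domains. A single window of 200 bp, the step in which the list was built, made up 185 DNase-free domains (3.21%) and 42 domains with a peak (0.184%). At the other end, 91 DNase-free domains (1.58%) were wider than 4000 bp, against 3438 (15.1%) of the rest, and only 2 exceeded 8000 bp. On each of the 19 autosomes the median width was lower for DNase-free domains, at 1400 to 1600 bp against 2200 to 2400 bp.

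The share of domains without a peak fell at each step of width. It was 52.7% (Wilson interval 50.3 to 55.2) among the 1621 domains of 200 to 600 bp, 35.9% at 800 to 1000 bp and 29.7% at 1200 to 1400 bp. It went on to 23.4% at 1600 to 1800 bp, 17.2% at 2000 to 2400 bp, 12.2% at 2600 to 3200 bp and 7.40% at 3400 to 4800 bp. Among the 2107 domains wider than 4800 bp it was 1.71% (1.24 to 2.36), or 36 domains. A wider domain offers more bases in which a peak can fall, so width and the absence of a peak are tied by the rule itself. Distances below are for that reason also given with the other domains weighted to the widths of the DNase-free ones.

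**Figure D2:**
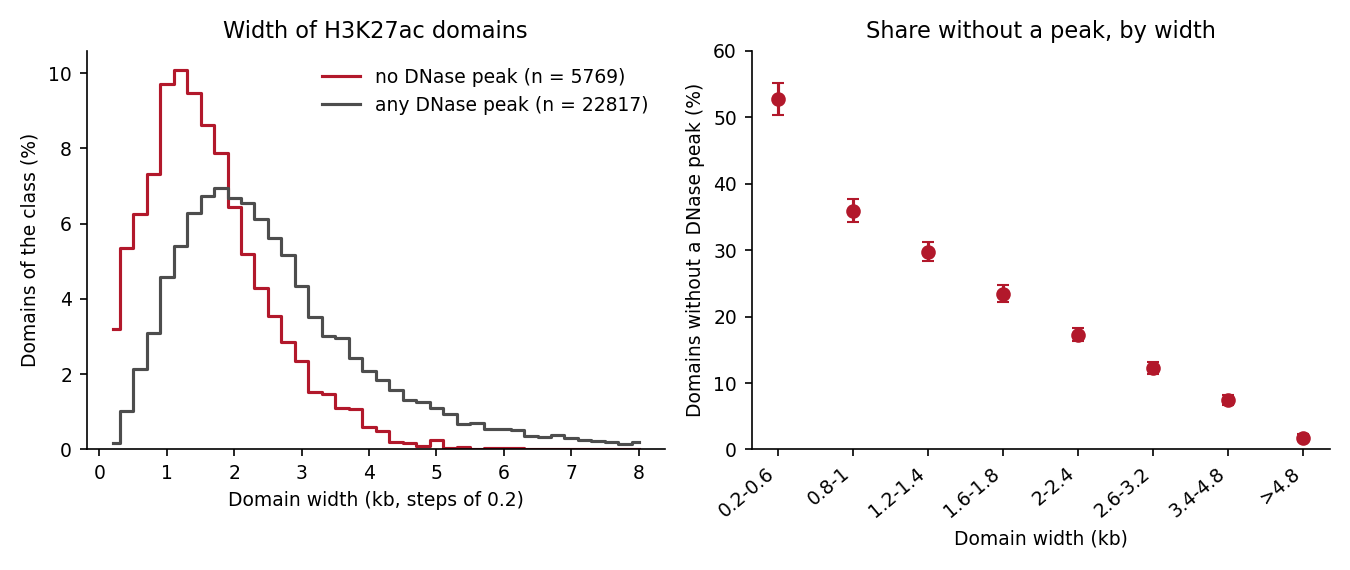
Left, the percentage of DNase-free domains (red) and of domains with any DNase peak (grey) at each width, in kb; widths above 8 kb are not drawn. Right, the percentage of domains without a DNase peak by width in kb, with Wilson 95% intervals, which falls from 52.7% in the narrowest to 1.71% in the widest class.

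The 5 widest DNase-free domains were followed individually. The widest lay on chromosome 14 from 27256601 to 27266400 and measured 9800 bp. Its nearest peak of any list was an E13.5 preSertoli peak 3084 bp away, and the next domain, 1200 bp away, held a preSertoli peak. The second, on chromosome 16 from 3256801 to 3266000, measured 9200 bp. It lay 600 bp from another DNase-free domain and 85621 bp from the nearest preSertoli peak, although adult liver had a peak at 2620 bp. The third was on chromosome 17 (88381401 to 88389000; 7600 bp), with an E15.5 preSertoli peak at 6168 bp. The fourth was on chromosome 14 (70655201 to 70662000; 6800 bp), where a heart peak lay at 8527 bp and a preSertoli peak at 13378 bp. The fifth was on chromosome 7 (80642401 to 80649000; 6600 bp), with a brain peak at 3413 bp and a preSertoli peak at 9882 bp. Of these 5, the chromosome 16 domain stood apart in its distance from preSertoli peaks.

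The absence of a peak was seldom a matter of a few bases. DNase-free domains had a peak of some list within 10 bp in 16 cases, within 50 bp in 83 and within 100 bp in 155 (2.69%). On the other side, 16 domains with a peak owed their place to an overlap below 10 bp, 108 to one below 50 bp and 443 to one below 100 bp, while the median of the largest overlap was 800 bp. Just inside the threshold were a domain on chromosome 3 (51399401 to 51400400) that abutted an E13.5 preSertoli peak, one on chromosome 10 (110225401 to 110227000) with a heart peak 1 bp away, and one on chromosome 16 (5284801 to 5286000) with an E13.5 preSertoli peak 3 bp away. Just outside were a domain on chromosome 13 (9062401 to 9063400) overlapped by 1 bp of a kidney peak, one on chromosome 15 (89085601 to 89086000) by 1 bp of an E15.5 preSertoli peak, and one on chromosome 10 (12357601 to 12358000) by 2 bp of an E15.5 preSertoli peak.

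The distance to preSertoli open chromatin spanned several orders of magnitude. From edge to edge, the nearest preSertoli region (peaks of both stages, joined where they overlap) lay a median of 9754 bp from DNase-free domains, with quartiles of 3657 and 28180 bp and a highest value of 1644427 bp. Domains with a preSertoli peak had their nearest further region, outside the domain, at a median of 4365 bp, and domains with a peak of another cell type only at 5656 bp. Weighted to the same widths, domains with any peak stood at 4685 bp, so DNase-free domains were 2.08 times farther. The median distance was larger for DNase-free domains on each of the 19 autosomes, at 6770 to 13758 bp against 3474 to 5597 bp. On the X chromosome it was smaller, at 13362 bp against 15755 bp, but not at equal widths, where X domains with a peak stood at 12828 bp. The rule used these peak lists, so the distances describe the domains and support nothing further.

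Near and far DNase-free domains differed in their surroundings. A preSertoli region lay within 1 kb of 404 DNase-free domains (7.00%), from above 1 to 10 kb of 2528 (43.8%), from above 10 to 100 kb of 2313 (40.1%), and beyond 100 kb of 524 (9.08%). Of domains with a preSertoli peak, 232 (1.10%) had no further preSertoli region within 100 kb. The median widths of the 4 classes were close, at 1200, 1600, 1400 and 1200 bp. Spacing was not: the median gap to the next domain was 11500 and 8400 bp in the nearer classes, 38800 bp from above 10 to 100 kb, and 225000 bp beyond 100 kb. In the last class the nearest domain was itself DNase-free in 71.6% of cases, against 20.0% in the first. The classes were cut by distance to preSertoli regions. For the last class, a neighbour lying wholly within 100 kb could therefore hold no preSertoli peak. These gaps and shares are thus partly set by the cut and are descriptions. A peak of any list lay within 10 kb of 78 of the 524 remote domains (14.9%), against 4166 (72.2%) of all DNase-free domains. By the cut, only peaks of other cell types could lie that near to the remote ones.

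**Figure D3:**
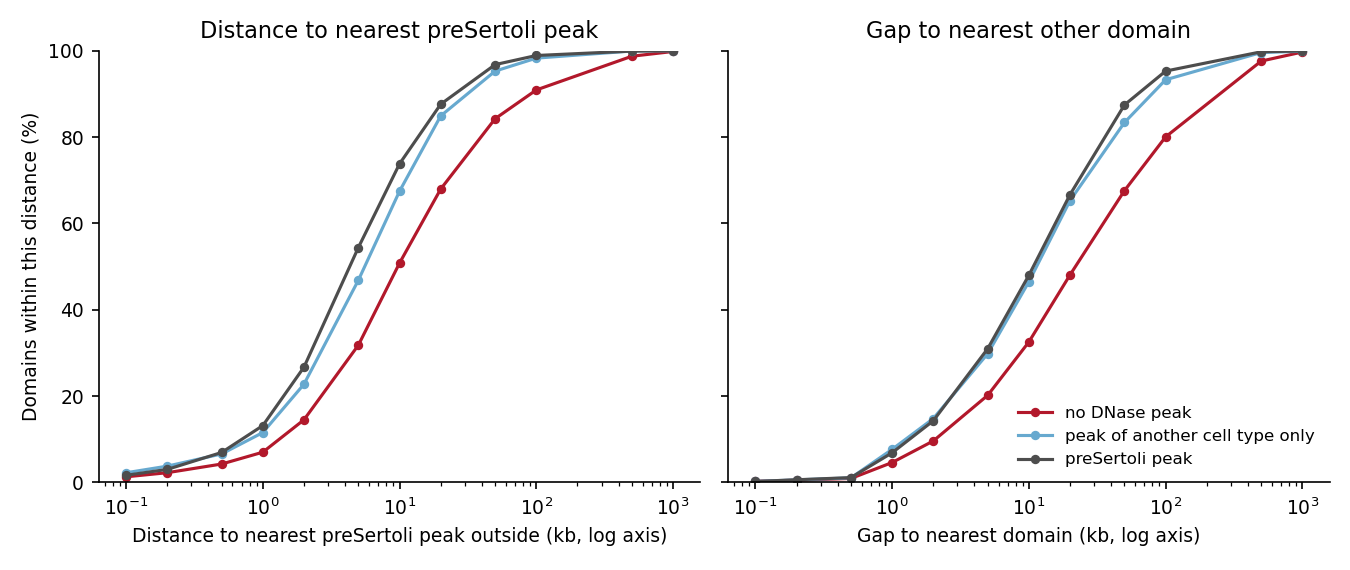
Cumulative percentage of domains with the nearest preSertoli region outside the domain (left) or the nearest other H3K27ac domain (right) within the distance on the log axis, in kb, for DNase-free domains (red), domains with a peak of another cell type only (blue) and domains with a preSertoli peak (grey). Within 10 kb a preSertoli region was met by 50.8% of DNase-free domains and 73.8% of those with a preSertoli peak, and another domain by 32.5% and 48.0%.

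The most remote DNase-free domains were short and had other DNase-free domains as neighbours. The farthest from preSertoli open chromatin was on chromosome 14 (90515401 to 90516400; 1000 bp), 1644427 bp from the nearest region. A second domain of the same stretch (90233401 to 90233600; 200 bp) stood at 1362427 bp, and both were much nearer to a peak of another cell type: heart at 65444 bp for the first and skin fibroblasts at 64502 bp for the other. On chromosome 15, the domain from 14956201 to 14957400 (1200 bp) lay 1632952 bp from a preSertoli region and 590337 bp from any peak, that of ES cells. The remaining 2 were on chromosome 1 (149964001 to 149965000; 1000 bp) at 1391777 bp and on chromosome 6 (10440401 to 10441600; 1200 bp) at 1310598 bp. For all 5 the nearest other domain was DNase-free too. Those neighbours lay 126800 to 721800 bp away, much nearer than any preSertoli region, so they could hold no preSertoli peak. Their class was therefore largely set by how the 5 were picked.

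By list, the median distance from DNase-free domains was shortest to ES cell peaks (11488 bp) and E13.5 preSertoli peaks (11600 bp). It was 14287 bp to E15.5 preSertoli peaks, 15336 bp to liver, 15463 bp to kidney, 15881 bp to heart, 16288 bp to brain and 17348 bp to skin fibroblast peaks. That order followed the length of the lists. With the 62218 best-scoring peaks of each, the 8 medians lay between 15992 bp (E13.5 preSertoli) and 18001 bp (liver), and the E15.5 preSertoli list, at 17815 bp, was next to last. The single nearest peak belonged to ES cells for 1491 DNase-free domains (25.8%), a list with 15.9% of all peaks, and to E13.5 preSertoli cells for 913 (15.8%), with 14.5%. For E15.5 preSertoli cells it was the reverse, with 533 domains (9.24%) and 13.4% of all peaks. A preSertoli peak of either stage was nearer than a peak of any other cell type for 1441 (25.0%), while the 2 lists held 27.9% of all peaks, and another cell type was nearer for 4325. Between stages, E13.5, the stage of the H3K27ac libraries, was nearer for 3539 DNase-free domains (61.3%) and E15.5 for 2217. The E13.5 list was also the longer, with 88107 against 81467 peaks. For domains with a peak, ES cell peaks outside the domain were likewise the nearest by list, at a median of 5253 bp. The stage order was the other way there, at 5550 bp for E15.5 and 5722 bp for E13.5 preSertoli peaks.

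The preSertoli region nearest to a DNase-free domain differed little from preSertoli regions in general. It lay inside another H3K27ac domain for 1737 DNase-free domains (30.1%; Wilson interval 28.9 to 31.3), against 32.5% for domains with a preSertoli peak, and 28.5% of all 109145 preSertoli regions lay in a domain. The nearest region was open at both stages for 46.6% of DNase-free domains, against 51.1% for domains with a preSertoli peak and 51.4% of all regions. Its median rank by the authors' score was at the 45.0th percentile of its list, against 48.5 beside domains with a preSertoli peak.

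PreSertoli open chromatin was sparser around DNase-free domains at each distance measured. From the edge to 500 bp outward they had 0.0435 preSertoli regions per kb, against 0.0804 per kb beside domains with a preSertoli peak of equal widths. From 500 to 1000 bp the densities were 0.0315 and 0.0768, and from 2 to 5 kb they were 0.0502 and 0.104. From 20 to 50 kb the values were still 0.0543 and 0.0970 per kb. The unweighted density was lower beside DNase-free domains on 19 or 20 of the 20 chromosomes compared (1 to 19 and X) in each step. The lower density extended well beyond the width of a domain. The rule and the comparison set both used these peaks, so the densities describe the domains and support nothing further.

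**Figure D4:**
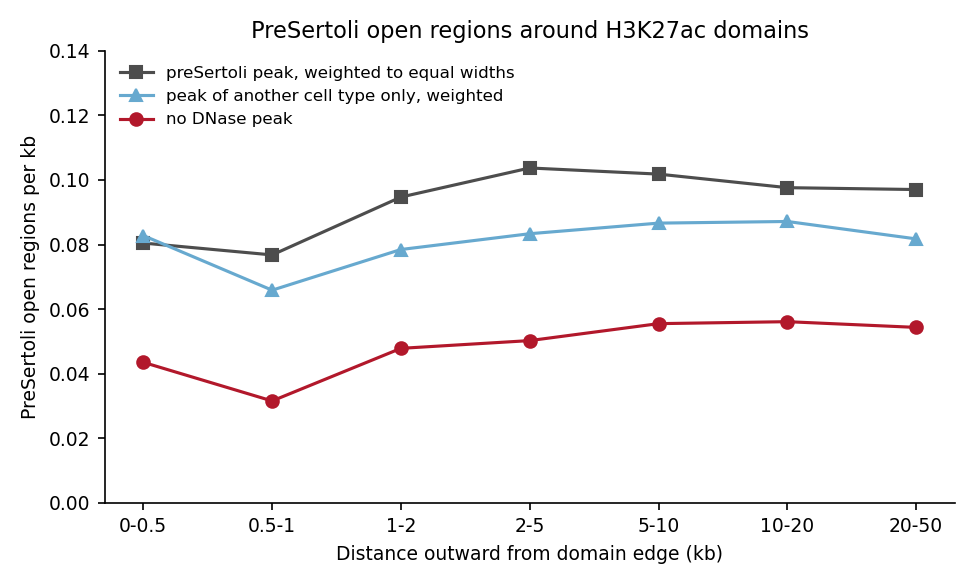
PreSertoli open regions per kb, both sides together, by distance in kb outward from the domain edge, for DNase-free domains (red circles), domains with a preSertoli peak (grey squares) and domains with a peak of another cell type only (blue triangles), the last 2 weighted to the widths of DNase-free domains. The red line stays between 0.0315 and 0.0561 per kb, below the others at each step.

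DNase-free domains also lay farther from other H3K27ac domains. The gap itself is measured without the DNase lists, but the groups compared were set by them. DNase-free domains also lay in stretches with fewer preSertoli regions, so the gaps are descriptions too. The nearest other domain lay a median of 21800 bp away (quartiles 6600 and 72800 bp), against 11000 bp (quartiles 4000 and 28000 bp) for domains with a peak. Weighted to the same widths, domains with a peak stood at 13400 bp, so the ratio went from 1.98 to 1.63. The gap was larger for DNase-free domains in all 8 width classes, from 31800 against 15800 bp at 200 to 600 bp to 7900 against 5400 bp above 4800 bp. It was larger on all 19 autosomes, by 1.57 to 2.48 times, and smaller on the X chromosome. No other domain lay within 100 kb of 1151 DNase-free domains (20.0%), against 1108 (4.86%) of those with a peak. Spacing did not follow the number of DNase lists step by step: the median gap was 11600 bp with a peak in 1 list, 7400 bp in 5 and 12800 bp in all 8.

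Close neighbours occurred too. The nearest domain was within 600 bp of 78 DNase-free domains (1.35%) and of 419 domains with a peak (1.84%). That neighbour held a preSertoli peak in 59 of the 78 and in 330 of the 419. Of all 28586 domains, 21120 held one. At any distance, the nearest domain held one for 3635 DNase-free domains (63.0%) and for 17596 domains with a peak (77.1%). The 59 of 78 are thus a larger share than among all neighbours of DNase-free domains. That difference rests on few domains and was not tested. Over the whole list, 33 pairs of domains touched, 95 pairs lay 600 bp apart and 363 pairs 800 bp apart.

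The share with a DNase-free nearest neighbour was higher among DNase-free domains than among domains with a peak. The nearest domain was DNase-free for 1794 DNase-free domains (31.1%, Wilson interval 29.9 to 32.3), against 3819 (16.7%, 16.3 to 17.2) of domains with a peak. A mutual pair is counted from both sides, so these intervals treat dependent counts as independent. The shares are not weighted to equal widths. The higher share for DNase-free domains held on each of the 20 chromosomes compared. The X chromosome had the lowest value for DNase-free domains, 15.2%, against 13.3% there for domains with a peak. In order along the chromosome, 2950 DNase-free domains stood singly between domains with a peak, and 2819 (48.9%) fell into 1020 runs of 2 or more. Runs of 5 or more numbered 97, with 565 domains. With 20.2% of all domains DNase-free, many runs would arise in a random order too. The share expected in runs was not computed, so these counts are descriptions.

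The 3 longest runs lay in sparse stretches of chromosomes 1 and 3. A run of 11 spanned 4.78 Mb of chromosome 1 (114153601 to 118935600), in domains of 600 to 2600 bp. That span held 10 preSertoli regions, and the run's domains were a median of 261266 bp from the nearest, while ES cells alone had 25 peaks there. A run of 10 on chromosome 3 (148910001 to 151535200) spanned 2.63 Mb with 14 preSertoli regions, a median of 35032 bp away. Its span was richer in heart peaks (25), kidney peaks (20) and liver peaks (20) than in E13.5 (12) or E15.5 (6) preSertoli peaks. Another run of 10 on the same chromosome (123860401 to 125588600) spanned 1.73 Mb with 15 open regions of any list, 8 of them preSertoli.

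Crowding per Mb gave other places, which were chosen after their values were seen. The windows of 1 Mb with most DNase-free domains, 13 each, began at 30000001 on chromosome 17, among 39 domains, and at 108000001 on chromosome 4, among 44. There the domains lay a median of 3705 and 7044 bp from a preSertoli region, and the windows held 100 and 64 preSertoli regions. Of the windows with 12 DNase-free domains, that at 72000001 on chromosome 16 was the sparsest, with 17 domains and 15 preSertoli regions in the whole Mb. Those at 52000001 on chromosome 12 and 37000001 on chromosome 19 held 22 and 23 domains, with 32 and 65 preSertoli regions.

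The share of DNase-free domains varied between autosomes from 15.7% on chromosome 17 (199 of 1268) to 26.1% on chromosome 3 (401 of 1535), with a median of 20.3%. Chromosomes 11 (15.8%) and 7 (16.4%) were also low, and chromosomes 18 (24.9%), 16 (24.2%) and 1 (24.0%) high. The Wilson intervals of chromosomes 17 (13.8 to 17.8) and 3 (24.0 to 28.4) were far apart, whereas neighbours in the order overlapped. Chromosomes 1 and 2 held most in number, 432 each. Set against the number that their domain widths alone would give, autosomes ranged from 0.806 times on chromosome 17 to 1.26 times on chromosome 3. Across the 19 autosomes the share fell where preSertoli regions were more numerous per domain (Spearman's rho -0.81) and rose with the median gap between domains (rho 0.82). Shares and densities of a chromosome come from the same lists, so these are descriptions.

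The X chromosome stood apart in several respects. Only 66 of its 562 domains were DNase-free (11.7%; Wilson interval 9.34 to 14.7), below every autosome and below the autosomal share of 20.4%, although its interval overlapped those of chromosomes 17 and 11. That was 0.487 times the number expected from the widths of its domains. The X share itself depended on the peaks used: it was 22.1% with only the peaks above the median score of each list, against 31.4% of all domains, 19.6% with peaks at −log10 p of 2 or more, and 18.3% with the preSertoli lists alone. It lay below every autosome in these settings too. The lower share was seen in narrow domains, with 17.3% (11.2 to 25.7) of X domains of 1000 bp or less against 42.8% on autosomes, and at 1200 to 1800 bp, with 11.5% against 26.9%. At 2000 to 3200 bp the values were 11.1% (7.23 to 16.7) and 14.9%, which the X interval covers. DNase-free X domains and the others had the same median width, 1600 bp. The gap was reversed: the next domain lay a median of 16800 bp from DNase-free X domains and 30600 bp from X domains with a peak (26000 bp at equal widths). With so few domains, the 95% intervals of these medians, 10800 to 30000 and 26200 to 36600 bp, overlapped slightly. The distance to the nearest peak of any list was also not larger for DNase-free X domains, at 6667 bp against 6857 bp.

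X domains were reached more often by each of the 8 lists, although the X chromosome held only 5.65 joined DNase regions per H3K27ac domain, against 7.07 to 10.1 on the autosomes. ES cell peaks reached 77.4% of X domains and 54.0% of autosomal ones, E13.5 preSertoli peaks 80.2% and 69.9%, and E15.5 preSertoli peaks 70.3% (Wilson interval 66.4 to 73.9) and 68.6%, the only list whose X interval covered the autosomal share. Peaks in all 8 lists were found in 288 X domains (51.2%), against 38.4% of autosomal domains. The preSertoli embryos were male for the DNase libraries, and the H3K27ac cells came from fetal testes. No sex is stated for the other 6 cell types, so the number of X copies was not controlled between lists.

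**Figure D5:**
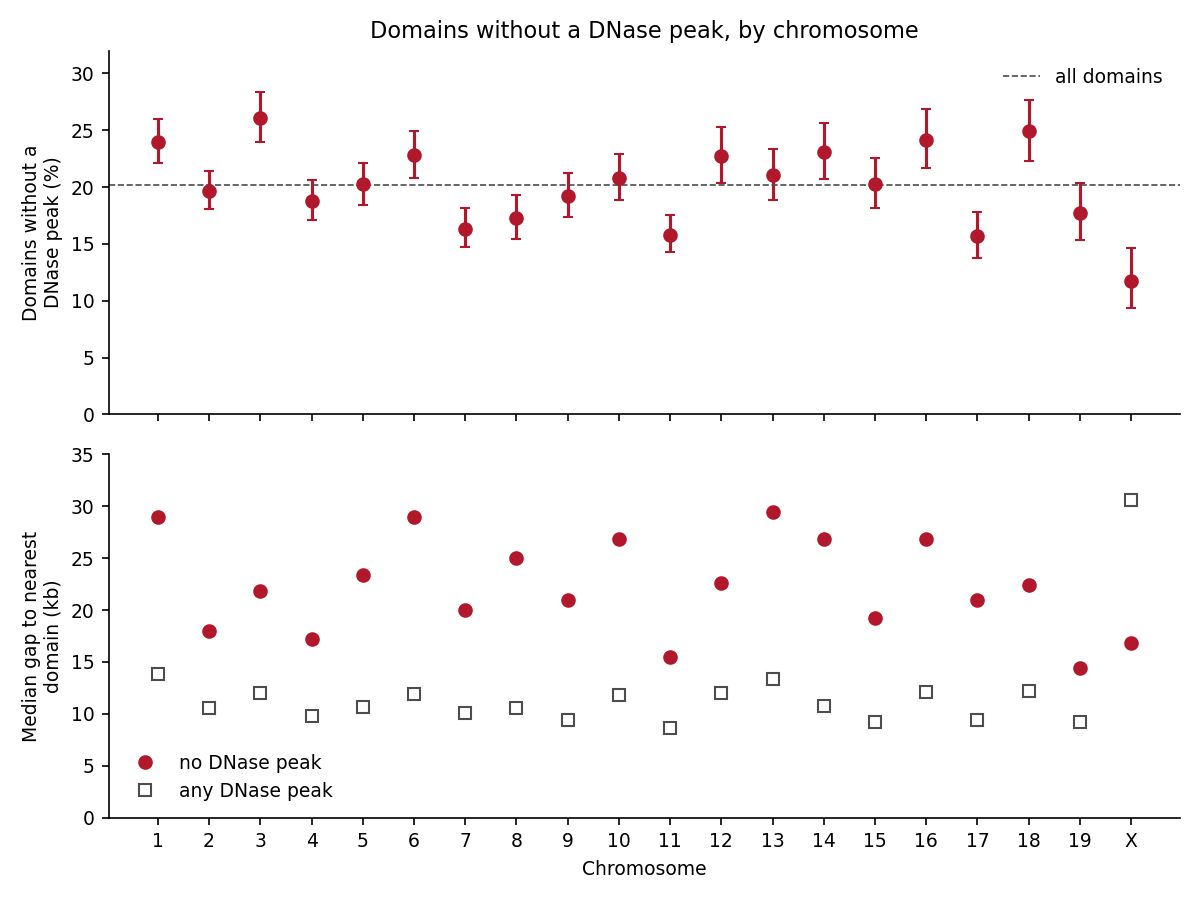
Top, the percentage of H3K27ac domains without a DNase peak on chromosomes 1 to 19 and X, with Wilson 95% intervals and the value of all domains as a dashed line; bottom, the median gap in kb to the nearest other domain for DNase-free domains (filled) and domains with any peak (open). The X chromosome has the lowest share, 11.7%, and is the only one drawn on which the filled point lies below the open one.

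Among the 66 X domains without a peak, the largest group in 1 Mb was of 5 domains between 12176201 and 12613400, in a window with 22 domains and 28 preSertoli regions; this window was also picked after its values were seen. Their gaps to the next domain ran from 800 to 29000 bp. The Y chromosome had 15 domains, of which 2 were DNase-free, too few to compare, and only the preSertoli and skin fibroblast lists held Y peaks.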

How the data were processed

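The authors' tools, per the submitters' processing notes, were SICER, Bowtie and CASAVA 1.8.2 for ChIP-seq, and bedtools, SAMtools and BWA 0.6.1-r104 for DNase-seq, both on mm9. How peaks were called, at which threshold and from how many reads is not given in the sources used here. The columns of the deposited DNase lists have no header, and from their values they hold the authors' score, the authors' signal height and the authors' −log10 p of each peak. The H3K27ac file deposited by the authors lists domains in steps of 200 bp, and whether the 2 ChIP libraries were pooled is not stated. The RNA-seq table was not used, since it holds no positions.

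Overlap, edge-to-edge distances and gaps were computed in Python 3.11.15 with numpy 2.4.6, pandas 2.3.3 and scipy 1.17.1, and the functions were tested on simulated data. The last base of each domain was counted in its width. A domain was DNase-free when no peak of the 8 lists overlapped it by 1 bp. Peaks of both preSertoli lists were joined where they overlapped. For weighting, each width of 200 bp steps was given the frequency it had among DNase-free domains, with widths above 5000 bp pooled. Regions named were the 5 widest, the 5 farthest from preSertoli peaks, the 3 longest runs and the 3 on each side of the threshold. The 1 set of domains and 1 DNase library per cell type allow no test over samples, so none was made. Intervals of medians are order-statistic (binomial) ones. Overlap, threshold, list, flank and domain definitions were varied. The members and the rules were chosen with earlier results of these data known.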

Additional observations from a re-analysis of the deposited data

How the results depend on the processing

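In all 20 alternatives DNase-free domains had a narrower median width than the other domains and a larger median gap to the next domain, by 1.51 to 2.31 times against 1.98 as reported. In all 19 that keep the X chromosome, its share lay below that of every autosome and its gap stayed smaller for DNase-free domains (13000 to 22000 bp against 29200 to 32100 bp). Their number rose to 8962 with only the peaks above the median score of each DNase list. Their median width became 1600 bp with those peaks, with peaks at −log10 p of 2 or more, with lists of equal length, with the 2 preSertoli lists alone and with the E13.5 preSertoli list alone, and 1800 bp among domains of 1000 bp or more. In the same order of the first 4 settings, the median distance to a preSertoli peak was 15526, 15454, 12327 and 8508 bp. Distance was taken to the preSertoli peaks kept in each setting. Except with the 2 preSertoli lists alone, those were fewer, so these values are not the same measure as 9754 bp. The distance was 8874 bp with an overlap of at least 100 bp, and 10875 and 11897 bp when no peak within 500 or 1000 bp was allowed. The median gap was 16600, 17400, 19800 and 18400 bp in the first 4 settings, 16800 bp with the E13.5 preSertoli list alone, 23400 and 25400 bp with the flanks of 500 and 1000 bp, and 20400 bp among domains of 1000 bp or more. The X share was 22.1, 19.6, 15.8 and 18.3% in the first 4 settings and 19.8% with the E13.5 preSertoli list alone. Where fewer peaks or lists were used, more domains counted as free of peaks by construction.

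Leaving out each DNase library in turn gave 5866 to 6405 domains, median widths of 1400 to 1600 bp, gaps of 20200 to 21600 bp and X shares of 11.9 to 13.9%. The median distance to a preSertoli peak was 9321 to 9715 bp without any 1 of the 6 other cell types. It was 13757 bp without the E13.5 and 10980 bp without the E15.5 preSertoli list, measured to the preSertoli list that was left. Leaving out chromosomes X and Y, and leaving out domains within 600 bp of another, were chosen after seeing the data. The RNA-seq alternatives were not run, because the domains could not be joined to genes. No paired analysis was possible because the results come from no test and the DNase groups have 1 library each. Unknown DNase depth limits how far a missing peak can be read.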
